A study of Mus musculus with 2 samples.

Results

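Mir126a, Mir143, Mir145a and Mir145b are microRNA genes of the blood vessel wall, and they were followed in skeletal muscle of newborn mice. They were taken by name from 1973 microRNA genes, by matching the Ensembl gene IDs of the count tables to GENCODE symbols, and all 4 were found. Tissue came from strain B6NCrl at postnatal day 0, without treatment or genetic change in the labels, and RNA below 30 bases was sequenced. Each of the 2 libraries was made from muscle of 1 pup. The labels number them as biological replicates 1 and 2 of the same group but give both the same donor record, so the spread between them may be partly technical. No sex was recorded and no condition was compared with another. Of the 4 genes, 3 were detected, which here means at least 10 counts in both libraries, as for 365 of the 1973 genes.

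MicroRNAs are short RNAs, cut from a hairpin in a longer transcript, and they bind messenger RNAs and reduce the protein made from them. Mature miR-126 is made from an intron of Egfl7, a gene of endothelial cells, the cells that line vessels, and it is known to strengthen growth factor signalling and vessel integrity by acting on Spred1 and Pik3r2. Mature miR-143 and miR-145 come from a shared cluster that is active in smooth muscle cells and pericytes, the contractile cells around the endothelium, where serum response factor and myocardin drive it and Klf4 and Klf5 are known targets. In skeletal muscle, the endothelial gene and the cluster were therefore taken to mark both layers of the vessel wall. The cells that gave the reads were not identified. Mir145b is a separate gene named for its likeness to Mir145a.

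Mir126a lies on chromosome 2, 26591357 to 26591429 (GRCm38, plus strand), in an intron of 8 annotated transcripts of Egfl7 and in an exon of 1, and also in an intron of Gm20532, a gene that overlaps Egfl7. A second microRNA gene, Mir126b, is annotated in GENCODE M21 on the opposite strand at 26591363 to 26591420 and has no row in the count tables. The sequences below, from RefSeq on GRCm38.p6, are shown because counts at this locus were separated by strand alone. In the mature sequence the capitals mark the seed, bases 2 to 8, with which a microRNA pairs to its targets. In both hairpins they mark the mature sequences that the RefSeq table lists, 1 for Mir126a and 2 for Mir126b. It has no entry for the first arm of the Mir126a hairpin, so that arm is unmarked, which does not mean that it gives no mature RNA.

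miR-126a-3p: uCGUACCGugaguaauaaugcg
Mir126a hairpin: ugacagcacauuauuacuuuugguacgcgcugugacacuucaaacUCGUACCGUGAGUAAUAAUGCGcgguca
Mir126b hairpin: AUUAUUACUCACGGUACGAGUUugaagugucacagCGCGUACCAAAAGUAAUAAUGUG

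The mature miR-126a-3p has 22 bases and begins at base 46 of the 73-base hairpin. Its seed occurred in 0 of the other mature mouse microRNAs among the 1738 in the table. The 58-base hairpin of Mir126b is the exact reverse complement of the Mir126a hairpin from its base 7 on, so a read from this place belongs to Mir126a or to its antisense gene by its strand only. Among all annotated microRNA hairpins that do not overlap it, the longest stretch that Mir126a shared with another was 12 bases, with Mir6405. Counts are per gene, so the arms of a hairpin were not told apart.

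Replicate 1 held 16398945 reads and replicate 2 held 21037937, and 7955914 and 10816295 of these counted for a microRNA gene on its annotated strand. Levels are given as CPM, counts per 1000000 of those microRNA counts, and intervals are exact 95% intervals that cover counting error only. How closely the counts of different microRNAs follow their amounts of RNA was not tested, so ratios between genes are ratios of counts. The authors kept multiply mapped reads in a row of their own (28.0% and 26.9% of reads), so a gene with near-identical copies holds only part of its reads. In the muscle markers, 7 of the 8 genes with a row were detected, and their summed level was 109281 CPM in replicate 1 and 122732 in replicate 2, nearly all of it Mir206. Summed levels were 15.5 and 12.1 CPM for the cardiac gene Mir208a, between 5017 and 6717 for the 4 fibroblast genes (highest Mir214), and between 1968 and 2205 for the 2 cartilage genes (highest Mir140). They were between 965 and 966 CPM for the neuronal genes (highest Mir128-1, with the 3 Mir124a genes at 0), and 531 and 334 for the 7 epithelial genes. The highest of these, Mir203, had a log2 ratio of replicate 1 over replicate 2 of -0.12, and Mir205 of -0.07. The other 5, of the miR-200 family typical of epithelial cells, passed the 2-fold test described below, as did 7.40% of all 365 detected genes. They were named after their values were seen and were higher in replicate 1, by between 1.20 (Mir141) and 2.52 (Mir200a). The part of this difference in the values of the vessel-wall genes was not tested.

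Mir126a was the most abundant of the vessel-wall genes. It had 357904 counts, or 44986 CPM (interval 44842 to 45130), in replicate 1 and 512998 counts, or 47428 CPM (47302 to 47555), in replicate 2. The mean was 46207 CPM ± 1727 (SD, n = 2), which is 4.62% ± 0.173 of microRNA counts, and the gene ranked 6 among detected genes in each library. Both libraries thus held it at nearly the same share, and it made up 2.18% and 2.44% of all reads, unmapped reads included. In RNA from a whole tissue, more cells of a type and more of an RNA per cell cannot be told apart.

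Mir143 came next of the 4, with 242774 counts or 30515 CPM (interval 30396 to 30635) in replicate 1 and 300061 counts or 27742 CPM (27644 to 27840) in replicate 2. Its mean of 29128 CPM ± 1961 (SD, n = 2) was 2.91% ± 0.196 of microRNA counts, and it ranked 10 in each library. Its values in both libraries were below those of Mir126a, without overlap. Mir143 lies on chromosome 18, 61649196 to 61649258 on the minus strand, 366 bases downstream of the noncoding gene Carmn.

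Mir145a had far fewer counts than its neighbour. It had 8083 counts or 1016 CPM (interval 994 to 1038) in replicate 1 and 8274 counts or 765 CPM (749 to 782) in replicate 2, a mean of 890 CPM ± 177 (SD, n = 2). It ranked 89 and 96 of 365 in replicates 1 and 2, and held 0.0890% ± 0.0177 of counts. It lies on the same strand of chromosome 18 at 61647825 to 61647894, 1301 bases beyond Mir143 and 352 bases from the noncoding gene Bvht on the other strand. For Mir143 and Mir145a the gene versions of the tables and of M21 differ, so the intervals in which the authors counted may differ slightly from these coordinates.

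Mir145b was not detectable at this depth. It had 1 count in replicate 1 and 0 in replicate 2, against a limit of 3 counts that a count of 0 allows, which is 0.377 and 0.277 CPM. The gene lies at 69022199 to 69022273 on chromosome 18, away from the Mir143 cluster, with 0 other annotated genes over it. The longest stretch it shares with Mir145a is 17 bases, also the longest either of them shares with any other hairpin, so no read longer than that could match both hairpins exactly. For Mir143 the longest shared stretch was 11 bases. Matches elsewhere in the genome were not searched.

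**Figure D1:**
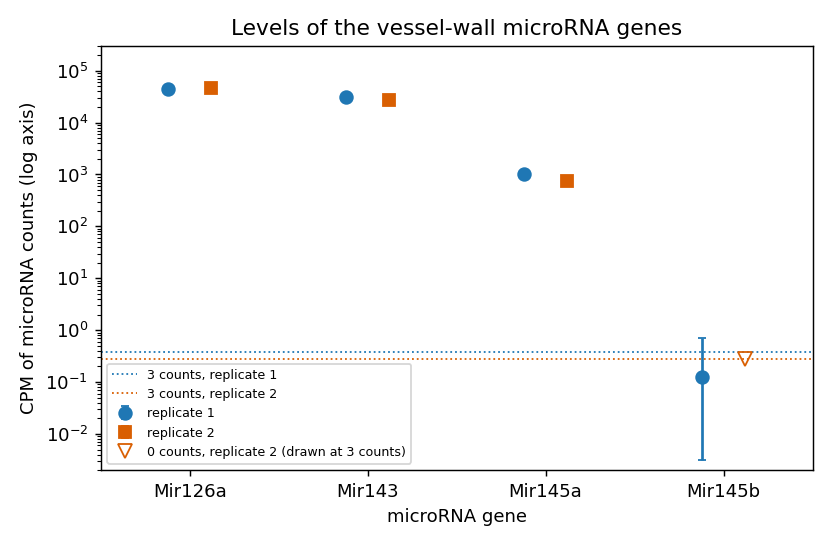
CPM of microRNA counts (log axis) for the 4 genes in replicate 1 (circles) and replicate 2 (squares), with exact 95% counting intervals, which are smaller than the symbols for the 3 detected genes. Dotted lines mark 3 counts in each library; the open triangle is the 0 count of Mir145b in replicate 2, drawn at that limit. Mir126a and Mir143 stand near the top and Mir145b lies under both limits.

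In the order of mean level, the gene directly above Mir126a was Mir335, with 58089 and 39909 CPM, whose range took in both values of Mir126a. The gene below was Mirlet7i with 44753 and 44400 CPM, under both values of Mir126a, without overlap. Mir143 stood under Mir127 (37145 and 37634 CPM, no overlap) and above Mirlet7g (28851 and 27604 CPM, overlapping). Mir145a lay between Mir539 (957 and 838 CPM) and Mir199b (1161 and 599 CPM), and its range overlapped both. Among these neighbours, the ranges of the libraries were apart only from Mir126a to Mirlet7i and from Mir127 to Mir143.

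Likeness over both libraries was measured as the Euclidean distance of log2(CPM + 1), where 0 is the same level in each library. Nearest to Mir126a were Mirlet7i (0.10), Mir381 (0.17) and Mir411 (0.31). For Mir143 they were Mirlet7g (0.08), Mir99a (0.20) and Mir322 (0.29), and for Mir145a Mir18 (0.04), Mir539 (0.16) and Mir425 (0.17). With 2 libraries the distance mostly reflects the level, and none of Mir126a, Mir143 and Mir145a had another of the vessel-wall genes among its nearest.

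**Figure D2:**
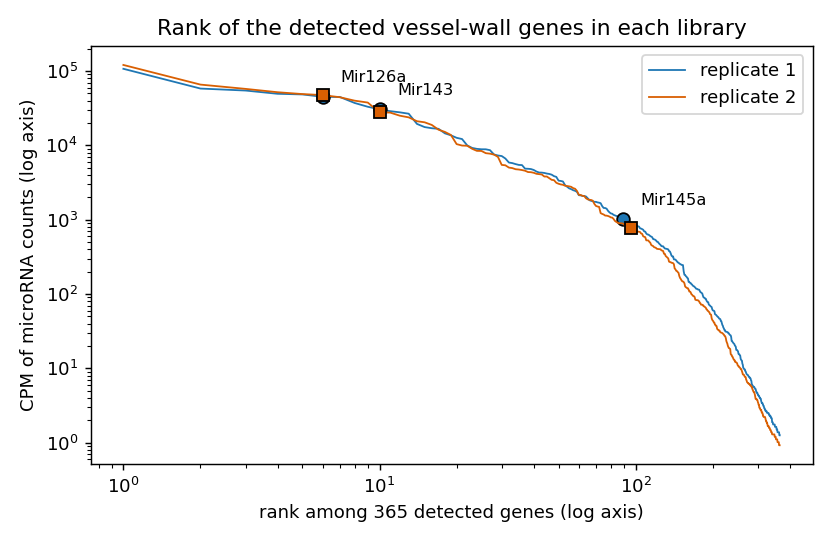
CPM (log axis) against rank (log axis) of the 365 detected genes in replicate 1 and replicate 2 (lines), with Mir126a, Mir143 and Mir145a marked as circles (replicate 1) and squares (replicate 2). Mir126a and Mir143 hold ranks 6 and 10 in each library, while Mir145a holds 89 and 96.

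Together the 4 genes took 7.65% of microRNA counts in replicate 1 and 7.59% in replicate 2, a mean of 7.62% ± 0.0412 (SD, n = 2). Within that sum, Mir126a held 58.8% and 62.5%, Mir143 39.9% and 36.5%, and Mir145a 1.33% and 1.01% in replicates 1 and 2. As a share of microRNA counts, the sum was therefore steadier between the libraries than its division between Mir126a and the other genes. That depends on the denominator. The scaling between libraries used below (TMM) shifts the ratio of the sums by 0.25 on the log2 scale and leaves the division unchanged.

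The ratio of Mir126a to Mir143, which needs no scaling between libraries, was 1.47 (interval 1.47 to 1.48) in replicate 1 and 1.71 (1.70 to 1.72) in replicate 2. Its mean was 1.59 ± 0.166 (SD, n = 2). The libraries differed 1.16-fold in this ratio, with an adjusted p too small for the software to represent (Fisher's exact two-sided test, Benjamini-Hochberg over 3 pairs of genes). Mir126a exceeded Mir145a 44.3-fold (43.3 to 45.3) and 62.0-fold (60.7 to 63.4) in replicates 1 and 2, a mean of 53.1 ± 12.5 and a difference of 1.40-fold between libraries (adjusted p = 4.19e-100, Fisher's exact test). Both ratios of the endothelial gene were lower in replicate 1. These tests have counting error as their only error term and compare the 2 libraries, not conditions.

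Mir143 exceeded Mir145a 30.0-fold (interval 29.4 to 30.7) in replicate 1 and 36.3-fold (35.5 to 37.1) in replicate 2, with a mean of 33.2 ± 4.41 (SD, n = 2). The ratio differed 1.21-fold between the libraries (adjusted p = 2.01e-32, Fisher's exact two-sided test). Counts of mature RNA were thus very unequal for neighbours in 1 cluster. To set this beside other clusters, pairs of detected genes were taken, a comparison added after the values were seen. Genes that share a 20-base stretch with another hairpin were first left out. Consecutive remaining genes on the same strand, at most 10 kb apart, were then paired. A pair can thus span a gene left out, as Mir379 and Mir1197, the most unequal pair, span Mir411. In these 72 pairs, 38 of them on chromosome 12, the higher gene exceeded the lower by a median of 5.32-fold, with quartiles of 2.49 and 13.3. The ratio of Mir143 to Mir145a was the tenth largest, so 13.9% of pairs, itself included, were at least as unequal. Outside chromosome 12, 4 of 34 pairs (11.8%), itself included, were at least as unequal.

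The shift of that ratio between libraries, 0.27 on the log2 scale, was close to the median shift of 0.28 over the 72 pairs, and 38 pairs shifted at least as much. A large ratio in Mir143 and Mir145a therefore came with an ordinary difference between the libraries. Pairs with a member under 10 counts in either library are missing from this comparison. With genes that share a stretch kept in, 27 of 106 pairs (25.5%) were at least as unequal.

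**Figure D3:**
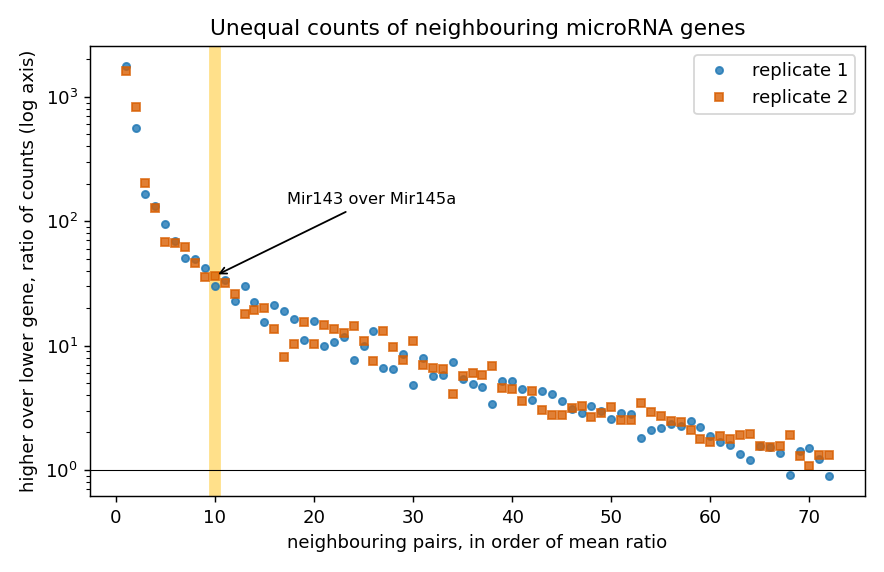
Ratio of the higher to the lower gene (log axis) for 72 pairs of neighbouring detected microRNA genes, ordered by mean ratio, in replicate 1 (circles) and replicate 2 (squares). The shaded pair is Mir143 over Mir145a at 30.0 and 36.3, against a median of 5.32 over all pairs.

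Differences between the libraries were tested for each detected gene by an exact two-sided binomial test after scaling by TMM, a trimmed mean of ratios that sets the typical gene to no change. Positive log2 ratios mean a higher level in replicate 1. Mir126a had a log2 ratio of -0.32 (interval -0.33 to -0.32), Mir143 of -0.11 (-0.12 to -0.10) and Mir145a of 0.16 (0.12 to 0.21). Mir145b was below the count minimum and was not tested. None of the 3 reached a 2-fold difference with an adjusted p under 0.05, as 7.40% of the 365 detected genes did. With the adjusted p alone all 3 passed (exact binomial test with Benjamini-Hochberg adjustment, adjusted p = 6.24e-165 for Mir143, 1.05e-12 for Mir145a and too small to represent for Mir126a), but so did 61.1% of detected genes. At such counts this test passes differences far smaller than 2-fold.

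The direction for Mir143 depended on the scaling. With library totals in place of TMM every ratio rose by 0.25, which gave -0.08 for Mir126a, 0.14 for Mir143 and 0.41 for Mir145a. The spread of other genes gives a scale that is closer to replicate error. Over the 365 detected genes the median absolute log2 ratio was 0.31 and 90% lay within 0.91. In the 21 genes whose mean reached 10000 CPM, the median log2 ratio was -0.26 and the median absolute value 0.30. Mir126a, at -0.32, had an absolute ratio at or above that of 61.9% of these abundant genes, itself included, and Mir143, at -0.11, was closer to 0 than most of them. For Mir145a the absolute ratio was larger than in 23.8% of the 84 genes that reached 1000 CPM, a level just above its own.

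**Figure D4:**
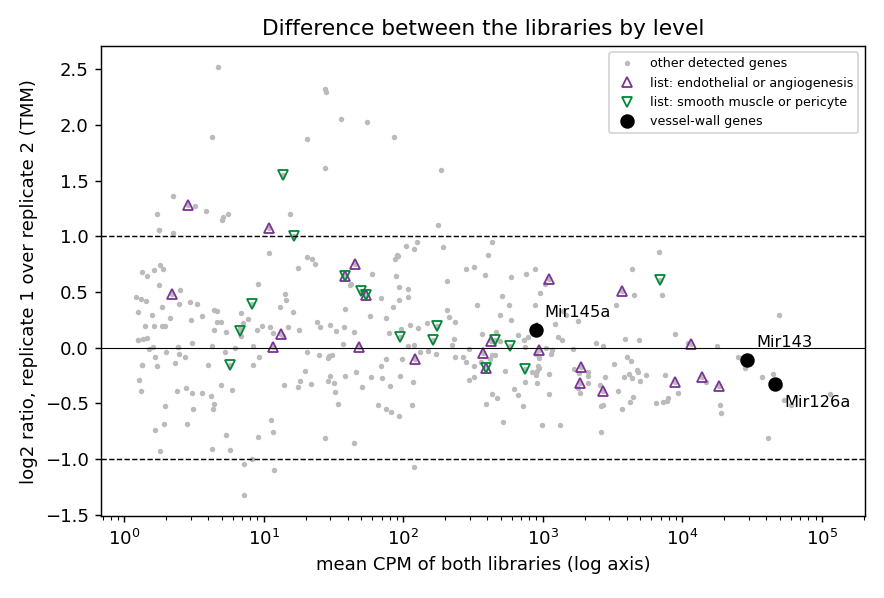
Log2 ratio of replicate 1 over replicate 2 after TMM scaling against mean CPM (log axis) for 365 detected genes. Black points are Mir126a (-0.32), Mir143 (-0.11) and Mir145a (0.16), triangles are genes of both lists of other vessel-linked microRNAs, and dashed lines mark 2-fold; the 3 vessel-wall genes lie well inside them.

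On the opposite strand of Mir126a, where Mir126b is annotated, 35 counts were found in replicate 1 and 12 in replicate 2. They made up 0.00978% of the counts of both strands (interval 0.00681 to 0.0136) and 0.00234% (0.00121 to 0.00409). Both numbers exceed the 3 counts that a count of 0 allows, and the intervals do not overlap, the larger share being in the library with fewer reads. At Mir143 and Mir145a, 0 opposite-strand counts were found in either library. For Mir143 the interval of the share reached up to 0.00152% of the counts of both strands in replicate 1 and 0.00123% in replicate 2. For Mir145a it reached up to 0.0456% and 0.0446%. At Mir145b the opposite-strand count was 0 and 0 as well.

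Of the 50 most abundant genes, 40 had 0 opposite-strand counts in both libraries and 9 had at least 1 in each, Mir126a among them. Over all genes, the opposite strand held 10.7% and 11.9% of the counts of both strands in replicates 1 and 2. Such counts, for example 83429 and 125377 at Mir299b, are not part of CPM or ranks. At Mir127 the opposite-strand share was 0.00508% and 0.00344% in replicates 1 and 2, below Mir126a in replicate 1 and above it in replicate 2. It was above Mir126a in both libraries at Mir434 (0.0158% and 0.0136%), and far above at Mir337 (0.627% and 0.556%). At Mir130a (0.00298% and 0.000890%) it was below Mir126a in both. All of these genes were named after their values were seen. If all opposite-strand counts at Mir126a were Mir126b, that gene would hold at most 0.00978% of the counts at the locus. Whether they are transcripts of Mir126b was not tested.

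Other microRNAs that have been studied in vessel cells were described beside these genes, from lists that also hold genes of many other cell types. Of 26 listed for endothelial cells or angiogenesis, 24 had a row and 24 were detected, with a median level of 409 CPM against 87.0 CPM over all detected genes. The highest were Mir23a with 18218 CPM ± 852, Mir23b with 13720 ± 99.8 and Mir130a with 11513 ± 1585 (SD, n = 2). All of them were under Mir126a and Mir143 in each library, although 9 of the 24, Mir23a and Mir23b among them, share a 20-base stretch with another gene and are lower limits. After TMM, 9 were higher in replicate 1 and 7 in replicate 2 by the adjusted p (exact binomial test), against 110 and 113 of all 365, and the median log2 ratio was 0.02 against 0.01. A 2-fold difference was passed by 2 of the 24, against 27 of all 365 (7.40%). The 2 were Mir218-2 (1.07) and Mir19b-1 (1.29), both low, both sharing sequence with another gene and both named after their values were seen.

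Of 20 genes listed for smooth muscle cells or pericytes, 18 had a row and 16 were detected, with a median level of 74.7 CPM. Mir21a, which rises in growing and injured vessels, was the highest with 8967 and 4944 CPM in replicates 1 and 2, a log2 ratio of 0.61. Mir195a had 745 CPM ± 19.0 and Mir125b-1 579 ± 73.8 (SD, n = 2), so Mir145a was above all but Mir21a, with 9 of the 16 again lower limits through shared sequence. By the adjusted p, 8 were higher in replicate 1 and 2 in replicate 2 (exact binomial test after TMM), against 110 and 113 of all 365. The median log2 ratio was 0.18 against 0.01. A 2-fold difference was passed by 2 of the 16, against 27 of all 365 (7.40%). Both, Mir138-1 (1.55) and Mir138-2 (1.00), were named after their values were seen and also share sequence with another gene. Fibroblast genes (4 of 4, median 0.64), epithelial genes (5 of 7 against 1 in the other direction, median 2.03) and leukocyte and platelet genes (3 of 4 detected against 0, median 0.34) were also more often higher in replicate 1 by that test. Erythroid genes had 1 against 0 (median 0.52). Skeletal muscle genes went the other way, with 0 higher in replicate 1 against 3 in replicate 2 (median -0.15). So did cartilage and neuronal genes, each with 0 against 1 (medians -0.09 and -0.10). Library totals moved all these medians up by the same 0.25, and no difference between lists was tested.

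Besides endothelium, miR-126 is known from blood progenitors and platelets, so blood markers were set beside it. The erythroid genes Mir451a and Mir144 summed to 583 CPM in replicate 1 and 286 in replicate 2. Leukocyte and platelet genes, highest on the annotated strand Mir223, summed to 752 and 546 CPM. The listed Mir142 had no row. The 7306 and 6286 opposite-strand counts at Mir142b, more than the 4197 and 4356 counts of Mir223, are not in these sums. Both sums were higher in replicate 1, while Mir126a had the higher CPM in replicate 2. After TMM the log2 ratio was 0.83 for Mir451a and 0.14 for Mir223, against -0.32 for Mir126a. The part of blood cells in the level of Mir126a was not tested.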

How the data were processed

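Small RNA of skeletal muscle was measured in 2 libraries. Reads were placed on mm10 and counted in genes of GENCODE M4, per the file headers in the deposited readme texts. The aligner and the counter are not stated there or in the labels. The authors deposited raw counts per gene, on both strands, on 1 strand and on the other, with 4 rows for reads that name no gene, which stayed out of library sizes and tests (unmapped reads 16.0% and 13.4%, multiply mapped 28.0% and 26.9%, in no gene 1.60% and 1.43%, ambiguous 0). In all 1973 genes the counts of both single strands sum to the unstranded count. The strand that holds most counts was taken as the annotated one, an inference from the values.

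Of 1973 IDs, 1894 matched GENCODE M21 (GRCm38, the assembly of mm10), 1815 with the same version. CPM, shares, ratios and intervals were computed from the counts. TMM factors (1.09 and 0.918) came from edgeR 4.0.16 in R 4.3.3, and the exact tests from scipy 1.17.1 in Python 3.11.15, with Benjamini-Hochberg adjustment over 365 detected genes. The count minimum was 10, the threshold 0.05 and the fold minimum 2. On simulated libraries with counting noise alone, 99.0% of genes raised 3-fold and 85.0% of those lowered passed, and 0.606% of 165 unchanged genes did. When replicates also varied (biological coefficient of variation 0.25), 94.0% and 76.0% passed, as did 6.67% of unchanged genes, and 65.5% of unchanged genes passed the adjusted p alone. Both simulations used the known library sizes without TMM, so they did not check the scaling.

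Members and lists were chosen with earlier results of these data known. Named genes were the members, their neighbours in level, the 3 nearest in likeness, the 3 highest of each vessel list and the highest of each marker list. Others were named after their values were seen. Alternatives were DESeq2 1.42.0 size factors, library totals, other count and fold minimums, both strands, other denominators and each library left out.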

Additional observations from a re-analysis of the deposited data

How the results depend on the processing

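Levels moved with the denominator. Scaled to all reads in place of microRNA counts, Mir126a was 23105, Mir143 14534 and Mir145a 443 CPM. Without the Dlk1-Dio3 domain they were 73470, 46178 and 1406 CPM. Without Mir206, Mir126a was 52161 and Mir143 32863 CPM, and with counts of both strands 40982 and 25845 CPM. Genes called between the libraries numbered 27, and 42 with library totals, 15 with at least 50 counts and 72 with a fold minimum of 1.5. Library totals turned the log2 ratio of Mir143 from -0.11 to 0.14. Under every scaling, count minimum and strand setting tried, Mir126a stayed between -0.34 and -0.08 and Mir145a between 0.15 and 0.41, and none of the 3 genes was called. The opposite-strand share at Mir126a averaged 0.00606%, and was 0.00234% without replicate 1 and 0.00978% without replicate 2. Among alternatives chosen after seeing the data, 14.3% of pairs at most 50 kb apart were at least as unequal as Mir143 and Mir145a, and 25.5% with genes that share 20 bases kept in, against 13.9%. At most 1 kb apart, that pair is not counted. With 2 libraries an SD rests on 1 difference, and leaving 1 out moves a mean by less than the SD by construction, so it says nothing of stability.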
